A study of Homo sapiens with 18 samples.

Results

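The transcripts described here are 27 snoRNA host genes out of the 57500 genes of the expression table. They are all rows named SNHG (small nucleolar RNA host gene) with a number, together with GAS5, ZFAS1 and EPB41L4A-AS1, 3 host genes with names of their own. The rule itself uses gene names only. The annotation behind the table was not given, so host genes that it lists under other names would be absent from the set. Of the 27 members, 25 were abundant enough to be tested in at least 1 cell line and 22 in all 3 lines. SNHG27 was listed at 0 in all 18 libraries, and SNHG22 stayed under 1 TPM in every library (highest value 0.461), so neither was tested.

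A snoRNA host gene is transcribed into a precursor whose introns hold small nucleolar RNAs. After splicing, the snoRNAs are trimmed out of the introns and join proteins that guide methylation (box C/D type) or pseudouridylation (box H/ACA type) of ribosomal RNA, or, as scaRNAs, act on spliceosomal RNAs in Cajal bodies. A poly-A library measures host RNA with a poly-A tail, which includes the spliced RNA that remains. At some loci annotated exons cover most of the gene, as with 3647 exon bases for SNHG15. Levels given here may therefore also include RNA that keeps introns, which was not tested. Many of these spliced RNAs carry short reading frames, meet ribosomes and are degraded by nonsense-mediated decay (NMD), the pathway that removes RNAs with early stop codons. Several, GAS5 and ZFAS1 among them, begin like ribosomal protein mRNAs with a 5′ terminal oligopyrimidine (TOP) tract, a C followed by a run of C and T, which ties translation of an mRNA to mTOR signalling.

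The study compared lung cancer cells with and without TRI-611, which the series title calls a molecular glue degrader of the receptor tyrosine kinase ALK. SNU2535, NCI-H3122 and NCI-H2228 are established human lines of non-small cell lung cancer (NSCLC) that carry EML4-ALK fusions. All have the genotype label WT, and each was given either the solvent DMSO or 3 µM TRI-611 for 3 h. Each of the 6 groups has 3 libraries of poly-A RNA, numbered 1 to 3 by a batch label that is shared across groups. Whether the 3 came from separate cultures is not stated, so p-values cover the spread between these libraries, which may be technical. Levels are in TPM, a transcript abundance corrected for length and scaled to the same sum in each library. TPM keeps no read totals, so the depth behind each value is unknown. Values with ± are mean and SD over 3 libraries.

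Between 23766 and 25921 genes were above 0 per library, and 24 to 26 of the 27 host transcripts. Mitochondrially encoded genes took 7.59% to 15.0% of all TPM. Of the 7 epithelial and lung carcinoma markers, all were above 5 TPM in every library. The lowest was CDH1 in NCI-H2228, at 5.56 to 6.36 TPM. Of the 9 markers of blood, endothelium and fibroblasts, PTPRC and COL3A1 stayed at or below 0.129 TPM throughout, while COL1A1 reached 361 to 393 TPM in NCI-H2228 and 131 to 164 TPM in SNU2535. The endothelial marker PECAM1 was at 5.37 to 6.71 TPM in SNU2535, 1.84 to 2.43 TPM in NCI-H2228 and at most 0.143 TPM in NCI-H3122, where VWF reached 2.44 TPM.

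The starts of 10 host transcripts are shown because they include hosts with and without a TOP-like start, and because the responses below turn on these transcripts. A start was called TOP-like where an annotated GENCODE release 29 transcript begins with C followed by 4 bases that are each C or T. The first 30 bases of the RNA come from the GRCh38 transcript sequences, and capitals mark the unbroken run of C and T at the 5′ end where it is at least 2 bases long. Where a gene has an annotated TOP-like start, that start is shown, even if most of its transcripts begin elsewhere. Otherwise the start with the most annotated transcripts is shown, and ties went to the lowest transcript name. The first 5 have an annotated TOP-like start and the last 5 do not. Among hosts with a TOP-like start that are not shown, SNHG1, SNHG3 and SNHG4 were called lower in SNU2535. The start shown belongs to 6 of 29 annotated transcripts for GAS5, 2 of 10 for ZFAS1 and 3 of 23 for SNHG5. It belongs to 1 of 5 for SNHG8 and 2 of 8 for SNHG16. Among the last 5 it belongs to 1 of 4 for EPB41L4A-AS1, 3 of 4 for SNHG7 and 1 of 10 for SNHG15. For SNHG17 it belongs to 2 of 8 and for SNHG20 to 4 of 18.
GAS5 (chr1:173867960-173867989, minus strand): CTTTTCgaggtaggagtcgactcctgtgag
ZFAS1 (chr20:49278642-49278671, plus strand): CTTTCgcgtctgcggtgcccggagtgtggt
SNHG5 (chr6:85678704-85678733, minus strand): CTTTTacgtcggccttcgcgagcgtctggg
SNHG8 (chr4:118278758-118278787, plus strand): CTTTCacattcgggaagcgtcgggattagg
SNHG16 (chr17:76557769-76557798, plus strand): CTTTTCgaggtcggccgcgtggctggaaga
EPB41L4A-AS1 (chr5:112160526-112160555, plus strand): tgtcgggtcccaaaatacgtggtctaaagt
SNHG7 (chr9:136728155-136728184, minus strand): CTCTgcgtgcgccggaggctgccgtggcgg
SNHG15 (chr7:44986541-44986570, minus strand): CCgccatcctgggccccacgtgttgcctga
SNHG17 (chr20:38435304-38435333, minus strand): gcctcagtccttcgccgtccctcgccgtcc
SNHG20 (chr17:77088749-77088778, plus strand): actcgcagtccgcaggatgactcagggcag

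TRI-611 moved the host transcripts in both directions within 3 h. SNHG15 and SNHG17 fell in all 3 lines. GAS5 rose in SNU2535 and NCI-H3122, as did ZFAS1, while EPB41L4A-AS1 rose in NCI-H3122 and NCI-H2228. The largest called fall exceeded the largest called rise, but not every fall exceeded every rise. In NCI-H2228, SNHG16 fell by 16.4% and EPB41L4A-AS1 rose by 23.7%. The largest fall was 68.6% (SNHG15 in SNU2535) and the largest rise among called members was 39.3% (GAS5 in NCI-H3122), both as changes of mean TPM. Within each line, log2(TPM + 1) was compared between TRI-611 and DMSO with limma over all genes with at least 1 TPM in at least 3 of the 6 libraries. A transcript was called higher or lower at an adjusted p (Benjamini-Hochberg) under 0.05, and log2 changes are given with limma's standard error (SE). On this scale the change of transcripts of low TPM is understated.

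In SNU2535, 11 of 23 tested members were called (47.8%), against 28.7% of all genes tested. Of these, 3 were higher (all genes 10.7%) and 8 were lower (all genes 18.1%). In NCI-H3122, 7 of 23 were called (30.4%, all genes 34.1%), 5 higher (all genes 20.6%) and 2 lower (all genes 13.4%). In NCI-H2228, 4 of 25 were called (16%, all genes 11.2%), 1 higher (all genes 4.8%) and 3 lower (all genes 6.4%). The share in SNU2535 was above that of all genes, that in NCI-H3122 was near it, and that in NCI-H2228 rests on 4 transcripts. The median log2 change of the tested members was -0.15 (SNU2535), 0.15 (NCI-H3122) and -0.02 (NCI-H2228), beside -0.02, 0.05 and 0.01 for all genes. After median-ratio scaling the members' medians were -0.12, 0.08 and -0.03 (all genes 0.005, -0.010 and 3.54e-05). After quantile normalization they were -0.10, 0.08 and 0.004 (all genes 0.025, 0.011 and 0.002). Without mitochondrially encoded genes they were -0.14, 0.17 and 0.007 (all genes -0.013, 0.076 and 0.035). All 3 TRI-611 libraries lay above all 3 DMSO libraries for 4 members in SNU2535 (all genes 18.1%), 10 in NCI-H3122 (29.5%) and 3 in NCI-H2228 (15.2%). They lay below for 9 members (all genes 25.8%), 2 members (18.6%) and 5 members (16.2%). Within batches, TRI-611 minus DMSO was above 0 in all 3 batches for 5 members in SNU2535, 12 in NCI-H3122 and 6 in NCI-H2228, and below 0 for 10, 3 and 7. The share of all genes with the same sign in all 3 batches was not computed, so these counts only describe the members. With the batch as a replicate block, the number called higher went from 3 to 1 in SNU2535 and from 1 to 0 in NCI-H2228. The number higher in SNU2535 was also 1 without library 1 or 3 of either group. In NCI-H2228 it was 0 without DMSO library 1 or any 1 TRI-611 library and 2 without DMSO library 3, and the number lower was 5 without DMSO library 1. Scaling moved the background split. In NCI-H3122, 3160 genes were higher and 2054 lower as deposited, but 2508 and 3162 after median-ratio scaling. In SNU2535 the split of 1731 higher and 2941 lower became 2506 and 2414 after quantile normalization. In NCI-H2228, 806 and 1076 became 1181 and 924 when mitochondrially encoded genes were left out.

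**Figure D1:**
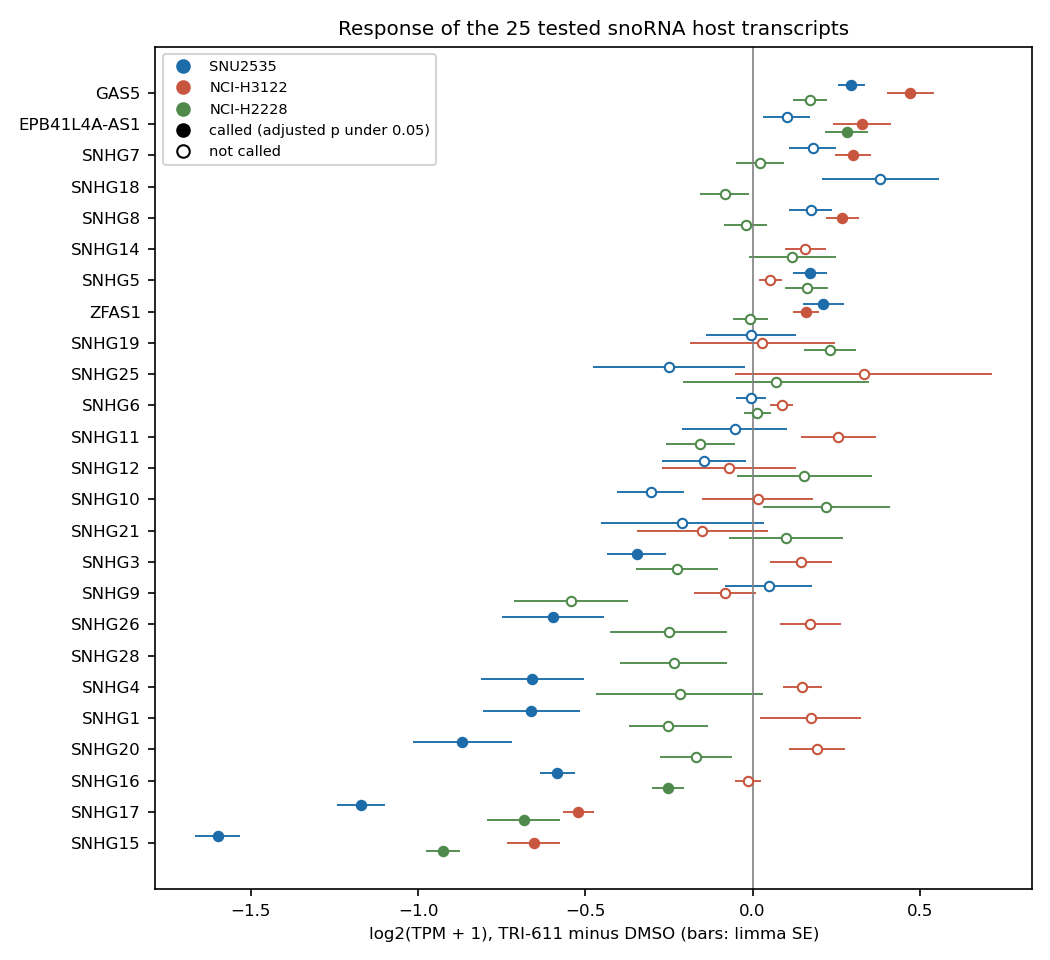
Log2 change after TRI-611 (x axis, difference of log2(TPM + 1), TRI-611 minus DMSO) of the 25 tested snoRNA host transcripts (y axis) in SNU2535 (blue), NCI-H3122 (red) and NCI-H2228 (green). Points are limma estimates, bars are SE, filled points were called at an adjusted p under 0.05, and SNHG15 and SNHG17 are filled to the left of 0 in all 3 lines.

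The largest fall was that of SNHG15 (ENSG00000232956, chromosome 7, 44983023 to 44986961, minus strand), a lincRNA that hosts the H/ACA snoRNA SNORA9. In SNU2535 its TPM was 38.1, 40.0 and 41.3 with DMSO and 12.1, 13.7 and 11.7 with TRI-611. The change was -1.60 on the log2 scale (SE 0.067, adjusted p = 4.76e-06), and the groups were far apart. In NCI-H3122 its TPM was 26.2, 26.1 and 26.8 with DMSO and 14.3, 17.1 and 18.0 with TRI-611, a change of -0.65 (SE 0.080, adjusted p = 0.000629). In NCI-H2228, the line with the highest DMSO level, its TPM was 46.7, 51.1 and 51.2 with DMSO and 25.1, 26.0 and 25.7 with TRI-611, a change of -0.93 (SE 0.051, adjusted p = 2.43e-05). Every TRI-611 library lay below every DMSO library of its line, and the call held in each line under all 15 alternatives.

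SNHG17 (ENSG00000196756, chromosome 20, 38420588 to 38435353, minus strand) hosts 4 H/ACA snoRNAs of the SNORA71 family. In SNU2535 its TPM was 12.8, 14.3 and 14.3 with DMSO and 5.73, 5.69 and 5.27 with TRI-611 (log2 change -1.17, SE 0.072, adjusted p = 2.74e-05). In NCI-H3122 its TPM was 31.6, 29.98 and 29.5 with DMSO and 21.0, 21.1 and 20.4 with TRI-611 (log2 change -0.52, SE 0.047, adjusted p = 0.000138). In NCI-H2228 its TPM was 13.2, 14.7 and 17.2 with DMSO and 8.31, 10.2 and 8.38 with TRI-611 (log2 change -0.68, SE 0.11, adjusted p = 0.00584). The groups did not overlap in any line. The neighbouring SNHG11, which also hosts an SNORA71 family member, was not called in any line, with log2 changes of -0.05, 0.26 and -0.16.

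SNHG16 (ENSG00000163597, chromosome 17, 76557766 to 76565348, plus strand) hosts the C/D snoRNAs SNORD1A, SNORD1B and SNORD1C and has an annotated TOP-like start. It fell in SNU2535 from 54.9, 54.8 and 59.8 TPM with DMSO to 35.9, 39.1 and 37.1 TPM with TRI-611 (log2 change -0.58, SE 0.052, adjusted p = 0.000151). In NCI-H2228 it fell from 59.8, 62.3 and 65.6 TPM to 50.6, 52.5 and 53.7 TPM (log2 change -0.25, SE 0.047, adjusted p = 0.0115). The call in NCI-H2228 was lost with plain empirical Bayes (adjusted p = 0.0506, range over the alternatives 0.00328 to 0.0506). In NCI-H3122, where its level was highest, TPM was 101, 99.1 and 103 with DMSO and 96.6, 103 and 100 with TRI-611, and the groups overlapped (log2 change -0.01, SE 0.039). Of its annotated exon bases, 30.6% lie opposite those of AC015802.6, which was not abundant enough to be tested.

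A further 5 hosts were called lower in SNU2535 and not called in the other lines. SNHG20, host of SCARNA16, had 3.58, 3.40 and 2.80 TPM with DMSO and 1.09, 1.25 and 1.68 TPM with TRI-611, a change of -0.87 (SE 0.15, adjusted p = 0.00381). That is a low level, and the ratio of mean TPM was 0.411. SNHG4, host of SNORA74A and SNORA74D, went from 2.90 ± 0.146 to 1.49 ± 0.428 TPM (-0.66, SE 0.15, adjusted p = 0.0157). SNHG26, host of SNORD93, went from 4.40 ± 0.429 to 2.60 ± 0.636 TPM (-0.60, SE 0.15, adjusted p = 0.0219). All 3 TRI-611 libraries were below all DMSO libraries for these transcripts. SNHG1 hosts a cluster of C/D snoRNAs from SNORD22 to SNORD31 and went from 24.9 ± 3.36 to 15.4 ± 2.70 TPM (-0.66, SE 0.15, adjusted p = 0.0145). SNHG3, host of SNORA73A and SNORA73B, went from 15.0 ± 1.02 to 11.6 ± 1.27 TPM (-0.35, SE 0.088, adjusted p = 0.0214). Some of these calls rested on single libraries. Those of SNHG1 and SNHG26 were lost without DMSO library 2 or 3, and that of SNHG3 without DMSO library 3. Adjusted p ran from 0.00111 to 0.0511 for SNHG1, from 0.0175 to 0.0735 for SNHG26 and from 0.00856 to 0.0721 for SNHG3 over the alternatives. Without DMSO library 3 of SNU2535, 5 members in place of 8 were called lower. SNHG20 shares 7.56% of its exon bases with SEC14L1 on the same strand, which was also called lower in SNU2535 (log2 change -0.32, adjusted p = 0.00158). SNHG4 shares 14.0% with MATR3 and SNHG3 shares 5.92% with RCC1, neither of which was called (log2 changes 0.02 and -0.03).

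GAS5 (ENSG00000234741, chromosome 1, 173863900 to 173868882, minus strand) is the best known member, a growth-arrest transcript whose introns hold 11 snoRNAs, 10 of them of the C/D type. In SNU2535 its TPM was 89.3, 87.8 and 90.6 with DMSO and 115, 108 and 106 with TRI-611, a log2 change of 0.30 (SE 0.040, adjusted p = 0.00127). In NCI-H3122 its TPM was 64.2, 64.2 and 72.4 with DMSO and 85.0, 95.5 and 99.2 with TRI-611, a log2 change of 0.47 (SE 0.071, adjusted p = 0.00174). The TRI-611 libraries lay above the DMSO libraries in both lines, and both calls held under all 15 alternatives. In NCI-H2228 its TPM was 99.3, 110 and 98.7 with DMSO and 115, 112 and 119 with TRI-611. There the groups also did not overlap, but the log2 change of 0.17 (SE 0.050) had an adjusted p of 0.0653. Over the alternatives that p ran from 0.027 to 0.18, and the change was called without DMSO library 2, with a filter of 5 TPM, after quantile normalization and without mitochondrially encoded genes.

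ZFAS1 (ENSG00000177410, chromosome 20, 49278178 to 49295738, plus strand) hosts SNORD12, SNORD12B and SNORD12C beside the start of ZNFX1. In SNU2535 its TPM was 79.2, 94.3 and 83.5 with DMSO and 99.6, 98.1 and 99.6 with TRI-611 (log2 change 0.21, SE 0.061, adjusted p = 0.0354). In NCI-H3122 its TPM was 51.1, 52.7 and 52.4 with DMSO and 60.0, 56.8 and 58.1 with TRI-611 (log2 change 0.16, SE 0.039, adjusted p = 0.0149). In NCI-H2228, where its level was highest, TPM was 199, 203 and 178 with DMSO and 194, 186 and 197 with TRI-611, and the groups overlapped (log2 change -0.01, SE 0.053). The 2 rises were small. With the replicate block their adjusted p was 0.0502 in SNU2535 and 0.0572 in NCI-H3122, within ranges over all alternatives of 0.00328 to 0.0998 and 0.0119 to 0.164. The call in SNU2535 was also lost without DMSO library 1 or 3 or without any 1 of the TRI-611 libraries, and that in NCI-H3122 without DMSO library 1 or 3 and after median-ratio scaling (log2 change 0.09, adjusted p = 0.164). ZNFX1, which shares 11.1% of the exon bases of ZFAS1 on the opposite strand, was called lower in SNU2535 (log2 change -0.18, adjusted p = 0.0184). No source used here gives the strand setting of the counting, so reads of overlapping genes on opposite strands cannot be told apart.

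EPB41L4A-AS1 (ENSG00000224032, chromosome 5, 112160526 to 112164276, plus strand) hosts SNORA13 and has no annotated TOP-like start. In NCI-H3122 its TPM was 11.7, 9.88 and 10.8 with DMSO and 13.6, 15.2 and 12.6 with TRI-611 (log2 change 0.33, SE 0.087, adjusted p = 0.0227). In NCI-H2228 its TPM was 9.44, 9.96 and 10.1 with DMSO and 12.7, 12.0 and 11.7 with TRI-611 (log2 change 0.28, SE 0.065, adjusted p = 0.0281). In SNU2535 its TPM was 7.70, 8.87 and 8.08 with DMSO and 9.07, 8.85 and 8.72 with TRI-611, and the groups overlapped (log2 change 0.10, SE 0.071). The call in NCI-H3122 was lost without DMSO library 2 or 3 or TRI-611 library 2 (range of adjusted p 0.00877 to 0.0747). The call in NCI-H2228 was lost without DMSO library 1 or 2 or any 1 TRI-611 library, and with the replicate block (adjusted p = 0.0574, range 0.0177 to 0.112). This transcript shares 49.6% of its exon bases with the protein-coding EPB41L4A on the opposite strand. EPB41L4A had log2 changes of 0.27 in SNU2535 (adjusted p = 0.056), 0.39 in NCI-H3122 (adjusted p = 0.0307) and 0.21 in NCI-H2228 (adjusted p = 0.213), so both transcripts had estimates above 0 in all 3 lines.

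Of the other called rises, SNHG5, host of SNORD50A and SNORD50B, went from 198 ± 9.85 to 224 ± 12.2 TPM in SNU2535 (log2 change 0.17, SE 0.051, adjusted p = 0.0398). That call was lost with the replicate block (adjusted p = 0.0722, range 0.0108 to 0.119) and without library 1 or 3 of either group. In NCI-H3122, SNHG7, host of SNORA17A and SNORA17B, went from 25.5 ± 1.46 to 31.7 ± 1.13 TPM (0.30, SE 0.055, adjusted p = 0.00448). SNHG8, host of SNORA24, went from 43.0 ± 2.30 to 51.9 ± 1.26 TPM in the same line (0.27, SE 0.049, adjusted p = 0.0044). Both calls held under all 15 alternatives. SNHG7 shares 25.2% of its exon bases with FAM69B on the opposite strand, which had a log2 change of 0.00 in NCI-H3122. Without DMSO library 3 of NCI-H3122, 3 members were called higher, and without its TRI-611 library 1, 8 were.

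**Figure D2:**
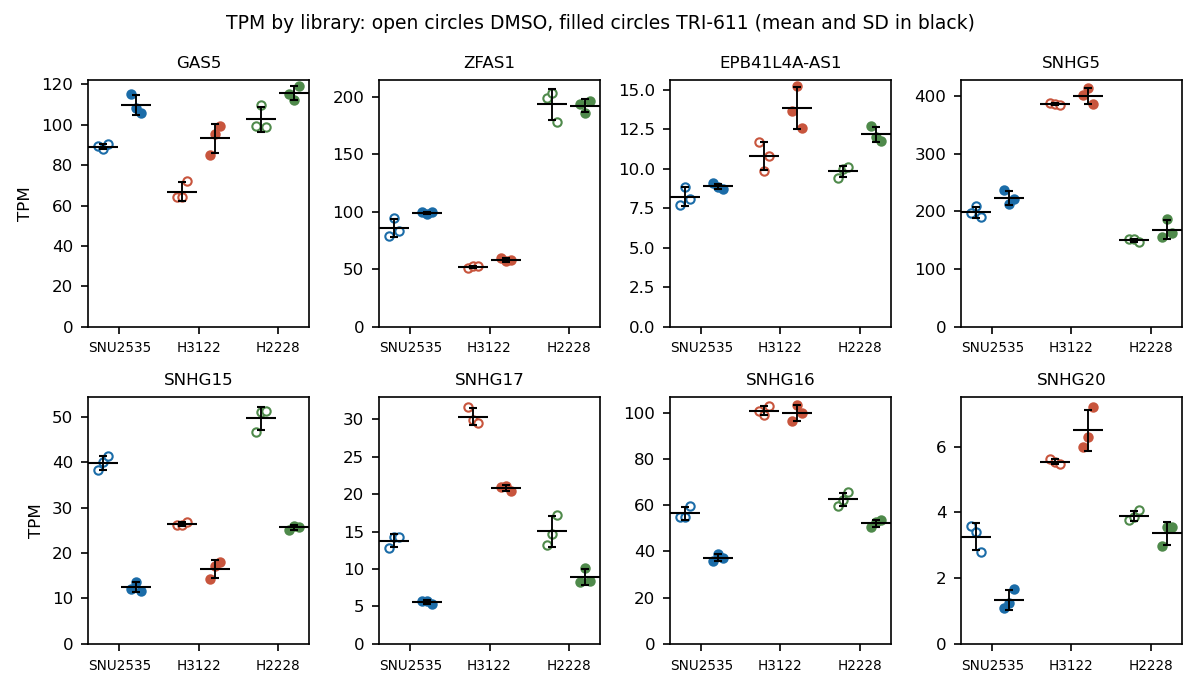
TPM in every library (y axis, from 0) of 8 snoRNA host transcripts in SNU2535, NCI-H3122 and NCI-H2228 (x axis), with open circles for DMSO, filled circles for TRI-611 and black marks for the mean and SD of 3 libraries. SNHG15 and SNHG17 drop in each line, GAS5 rises most in NCI-H3122, and ZFAS1 in NCI-H2228 sits between 178 and 203 TPM in both groups.

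The remaining 11 tested members were called in no line. SNHG6 was the most abundant of them, at 120 ± 3.65 and 120 ± 5.71 TPM in SNU2535 with DMSO and TRI-611, and its log2 changes were -0.00, 0.09 and 0.01. SNHG19, host of SNORD60, varied widely between libraries of a group, from 84.9 to 118 TPM with DMSO in SNU2535. SNHG9, host of SNORA78, had log2 changes of 0.05 and -0.08 in SNU2535 and NCI-H3122. In NCI-H2228 it went from 4.57 ± 1.00 to 2.81 ± 0.591 TPM (-0.54, SE 0.17, adjusted p = 0.081), and with the replicate block the adjusted p was 0.0457. SNHG10 and SNHG12 had log2 changes of -0.30 and -0.15 in SNU2535, with adjusted p of 0.0565 and 0.439. SNHG11, SNHG14, SNHG18, SNHG21, SNHG25 and SNHG28 also stayed without a call, and SNHG25 had the largest SE, 0.38 in NCI-H3122. The summed TPM of the 27 members was 918 ± 43.3 with DMSO and 917 ± 15.3 with TRI-611 in SNU2535. In NCI-H3122 the sums were 1103 ± 20.9 with DMSO and 1177 ± 39.6 with TRI-611. In NCI-H2228 they were 874 ± 21.4 and 863 ± 21.3. Bulk RNA cannot tell fewer cells expressing a transcript from less RNA per cell.

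The difference in response between lines was tested as an interaction over the 12 libraries of each pair. SNU2535 and NCI-H3122 differed for 8 of 22 members (36.4%, all genes 20.1%), each time with the more negative response in SNU2535 (all genes 16.4%, and 3.71% the other way). SNHG20 differed most, with a response of -0.87 in SNU2535 and 0.19 in NCI-H3122 (difference -1.06, SE 0.16, adjusted p = 0.000646). SNHG15 followed with a difference of -0.95, then SNHG1 (-0.84), SNHG4 (-0.81), SNHG26 (-0.77), SNHG17 (-0.65), SNHG16 (-0.57) and SNHG3 (-0.49). SNHG15 and SNHG17 thus fell in both lines but further in SNU2535. For SNHG3, SNHG4, SNHG26, SNHG1 and SNHG20 the estimate in NCI-H3122 was above 0 without a call. SNU2535 and NCI-H2228 differed for 4 of 23 members (17.4%, all genes 10.6%), again all more negative in SNU2535 (all genes 7.83%, and 2.74% the other way). These were SNHG20 (-0.70), SNHG15 (-0.67), SNHG17 (-0.49) and SNHG16 (-0.33). With the replicate block, 6 members differed, with SNHG1 (adjusted p = 0.0153 against 0.257) and SNHG10 (0.0499 against 0.167) added. NCI-H3122 and NCI-H2228 differed for 3 of 23 (13.0%, all genes 14.3%), each more positive in NCI-H3122 (all genes 8.99%, and 5.34% the other way). These were GAS5 (0.30), SNHG8 (0.29) and SNHG16 (0.24). The SNHG8 difference was lost with the replicate block (adjusted p = 0.0587, range 0.00798 to 0.0893). Leaving out single libraries lowered these counts. Between SNU2535 and NCI-H2228, 2 members differed without TRI-611 library 1 of SNU2535 or without DMSO library 1, DMSO library 2 or TRI-611 library 2 of NCI-H2228. Between NCI-H3122 and NCI-H2228, 1 member differed without DMSO library 2 or TRI-611 library 2 or 3 of NCI-H3122, or without TRI-611 library 1 or 3 of NCI-H2228. The comparisons of a line with each of the other lines share that line's libraries.

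With DMSO alone, the lines differed in host transcript levels about as often as in other genes. In both of its pairs, NCI-H3122 had the higher level for most called members, unlike all genes. The members' median log2 difference was -0.36 (SNU2535 minus NCI-H3122) and 0.41 (NCI-H3122 minus NCI-H2228). Cytosolic ribosomal protein genes summed to 91644 to 93579 TPM per DMSO library in NCI-H3122. Their sums were 62257 to 63912 TPM in SNU2535 and 49680 to 52158 TPM in NCI-H2228, which was not tested. Over the 9 DMSO libraries, SNU2535 and NCI-H3122 differed for 20 of 25 members (80%, all genes 76.1%), 8 higher in SNU2535 (45.4%) and 12 lower (30.7%). SNU2535 and NCI-H2228 differed for 19 (76%, all genes 75%), 8 higher in SNU2535 (32.4%) and 11 lower (42.6%). The 11 became 7 without DMSO library 3 of NCI-H2228 and 6 after median-ratio scaling or quantile normalization. NCI-H3122 and NCI-H2228 differed for 21 (84%, all genes 79.3%), 14 higher in NCI-H3122 (30%) and 7 lower (49.3%). The percentages after the directions are those of all genes. SNHG5 was the most abundant member in SNU2535 (21.6% of the members' TPM) and in NCI-H3122 (386 ± 1.72 TPM, 35.0%). In NCI-H2228 it was ZFAS1 (193 ± 13.5 TPM, 22.1%), followed by SNHG5 (150 ± 2.67 TPM). GAS5 was highest in NCI-H2228 (103 ± 6.36 TPM), then SNU2535 (89.2 ± 1.38) and NCI-H3122 (66.9 ± 4.71), and neighbours in that order differed (adjusted p = 0.00981 and 9.97e-05).

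The largest differences between lines belonged to transcripts that were nearly silent in 1 of them. SNHG14, a long transcript of the imprinted Prader-Willi region with 83 annotated C/D snoRNAs, had 20.2, 18.5 and 19.1 TPM in the DMSO libraries of NCI-H3122. It had 2.20, 2.27 and 2.91 TPM in NCI-H2228 and at most 0.0184 TPM in SNU2535. The 3 lines did not overlap, and NCI-H3122 was 7.83-fold above NCI-H2228 (log2 difference 2.55, SE 0.094, adjusted p = 4.74e-09). SNHG18, host of SNORD123, had 14.6, 14.8 and 15.1 TPM in NCI-H2228 and 2.86, 2.08 and 3.51 TPM in SNU2535, and was listed at 0 in all DMSO libraries of NCI-H3122. SNHG28 had 2.70, 2.46 and 3.29 TPM in NCI-H2228 and at most 0.392 TPM in the DMSO libraries of the other lines. All its annotated exon bases also belong to another gene record of the same name on the same strand. SNHG4 had 11.2, 11.2 and 11.8 TPM in NCI-H3122, against 2.90 ± 0.146 TPM in SNU2535 and 2.86 ± 0.954 TPM in NCI-H2228, which did not differ by test from each other (adjusted p = 0.807). ZFAS1 was 3.71-fold higher in NCI-H2228 than in NCI-H3122 (adjusted p = 4.38e-09) and 2.26-fold higher than in SNU2535 (adjusted p = 1.88e-07). The difference of SNHG20 between SNU2535 and NCI-H2228 (adjusted p = 0.048) was the one called level difference lost with the replicate block (adjusted p = 0.0727).

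**Figure D3:**
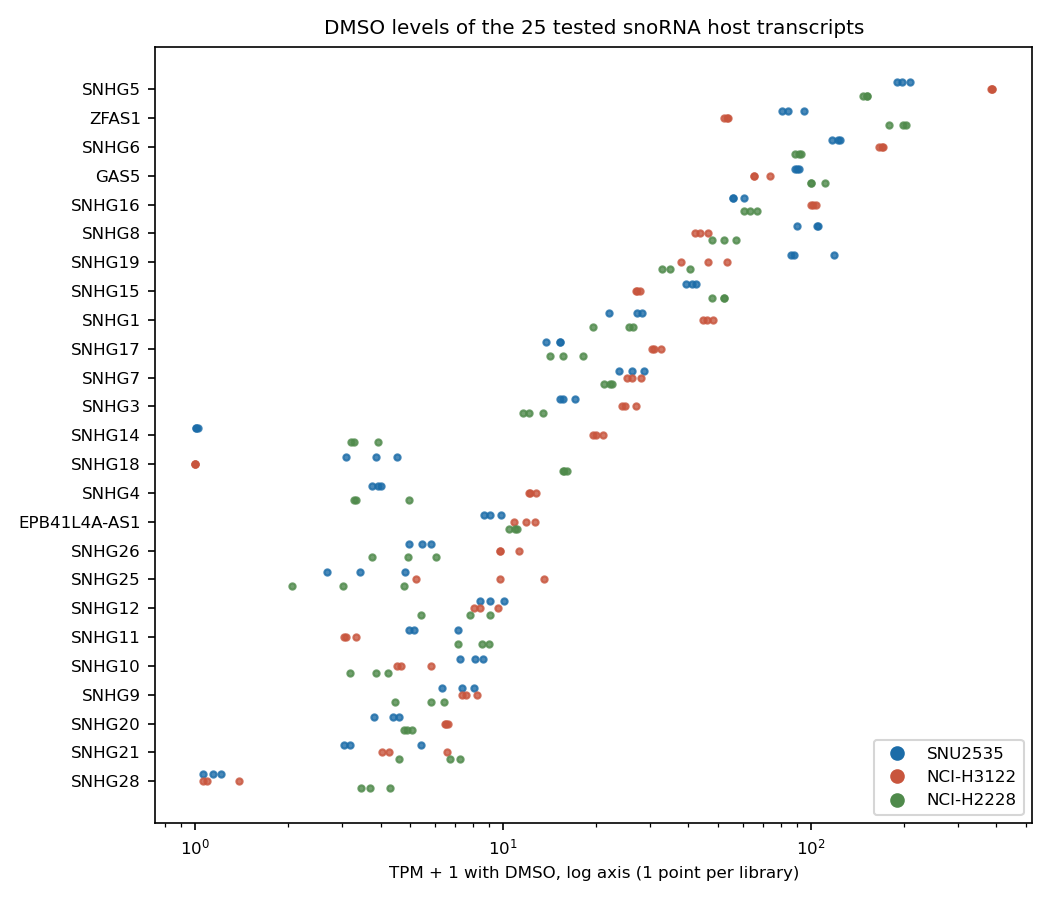
TPM + 1 in the 9 DMSO libraries (x axis, log scale, 1 point per library) of the 25 tested snoRNA host transcripts (y axis, ordered by their highest line mean) in SNU2535 (blue), NCI-H3122 (red) and NCI-H2228 (green). SNHG14 in SNU2535 and SNHG18 in NCI-H3122 sit at the left edge, while SNHG5 in NCI-H3122 reaches 384 to 387 TPM.

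RefSeq places 143 snoRNA or scaRNA genes inside the 27 loci, with at least 1 in 26 members, as the names of most of them imply. SNHG14 holds 83 of these, GAS5 11, SNHG1 9 and SNHG17 5. Outside SNHG14 the 60 comprise 32 C/D, 21 H/ACA and 4 scaRNA genes, the others being unclassified. The snoRNAs themselves lack poly-A tails. Of 52 snoRNA or scaRNA rows outside SNHG14, 32 were at 0 in all 18 libraries, so their levels are not interpreted here. These rows include none inside GAS5. Why so many were at 0 was not tested. A TOP-like start was annotated for at least 1 transcript of 14 of the 27 members (51.9%), against 13.2% of the 19149 genes tested in any line. The median gene had 5 annotated transcripts in both. Among cytosolic ribosomal protein genes the share was 83.5%, among other known TOP genes 75%, and among protein-coding snoRNA hosts 25%. These lists had more annotated transcripts per gene (medians 9, 14 and 15.5), which gives more chances of such a start. By the most used start alone, the share was 29.6% of members and 2.48% of all genes tested. In the same 3 lists it was 41.8%, 50% and 9.38%.

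Hosts with and without a TOP-like start both held calls in each direction, when the lines are counted together. In SNU2535, 10.7% of all genes were called higher and 18.1% lower. There the 14 tested hosts with such a start had 3 calls higher (GAS5, SNHG5 and ZFAS1) and 4 lower (SNHG1, SNHG3, SNHG4 and SNHG16). The median log2 change of the 14 was -0.03. The 9 hosts without such a start had 0 higher and 4 lower (median -0.30). NCI-H3122 had 20.6% of all genes higher and 13.4% lower. Its hosts with such a start had 3 higher and 0 lower of 13 (median 0.15), against 2 and 2 of 10 without one (median 0.09). For NCI-H2228 the shares of all genes were 4.8% higher and 6.4% lower. Its counts were 0 higher and 1 lower of 14 (median -0.01), against 1 and 2 of 11 (median -0.17). These counts are small, and neither class was tested against all genes or against the other class. SNHG15, SNHG17 and SNHG20, which had the largest falls in SNU2535, have no TOP-like start in any annotated transcript. The sequences above show only 1 start of each. SNHG16, called lower in SNU2535 and NCI-H2228, and GAS5, called higher in SNU2535 and NCI-H3122, share the run CTTTTC at the starts printed above. Those starts belong to 2 of 8 annotated transcripts of SNHG16 and 6 of 29 of GAS5. Which start these cells use was not tested. In the 300-base RefSeq promoter windows of 23 members, searched on both strands, the E-box CACGTG was found in SNHG7 (7.43% of 27305 promoters). The ETS motif CCGGAAGT was found in SNHG20 (4.44%), and the CRE TGACGTCA in none (1.98%). SNHG6, SNHG9, SNHG15 and SNHG25 were not searched. The transcript start printed above for SNHG15, which belongs to 1 of 10 annotated transcripts, itself contains CACGTG.

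Translation-linked transcripts were set beside the hosts from 6 lists, which overlap in a few genes. Their counts stand beside those of all genes tested, of which SNU2535 had 10.7% higher and 18.1% lower, NCI-H3122 20.6% higher and 13.4% lower, and NCI-H2228 4.8% higher and 6.4% lower. Cytosolic ribosomal protein genes, the main TOP class, were called higher for 37 of 79 and lower for 0 in SNU2535 (median log2 change 0.12), with the largest changes in RPL34 (0.26), RPL39 (0.22) and RPLP0 (0.20). In NCI-H3122 they were called higher for 6 and lower for 0 (median 0.03), but for 0 and 9 after median-ratio scaling (median -0.04), for 24 and 1 after quantile normalization (median 0.05) and for 25 and 1 without mitochondrially encoded genes (median 0.05). In NCI-H2228 none was called as deposited (median -0.03). The replicate block left 22 higher in SNU2535 and 1 in NCI-H3122. Other TOP genes, mostly elongation and initiation factors, were called higher for 11 of 24 and lower for 0 in SNU2535 (median 0.11), led by EIF4A2 (0.28), TPT1 (0.21) and EIF4B (0.20). In NCI-H3122 they were called for 8 and 0 (median 0.08), led by EIF4B (0.40), EIF4A2 (0.35) and EEF1A1 (0.21), but for 3 and 3 after median-ratio scaling, 13 and 1 after quantile normalization and 13 and 2 without mitochondrially encoded genes. In NCI-H2228, EIF4B (0.16) was called higher and NPM1 (-0.10) lower. GAS5, at 0.30 and 0.47 in SNU2535 and NCI-H3122, thus had larger log2 changes than any of the 79 ribosomal protein genes in those lines, whose highest values were 0.26 and 0.12.

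Of the 32 protein-coding snoRNA hosts outside the ribosomal proteins, 5 were called higher (15.6%, all genes 10.7%) and 12 lower (37.5%, all genes 18.1%) in SNU2535. The counts were 5 higher (15.6%, all genes 20.6%) and 9 lower (28.1%, all genes 13.4%; 3 and 14 after median-ratio scaling) in NCI-H3122 and 1 higher (3.12%, all genes 4.8%) and 10 lower (31.2%, all genes 6.4%) in NCI-H2228. The median log2 change was -0.10, -0.01 (0.01 without mitochondrially encoded genes) and -0.06. WDR43, a factor of small-subunit ribosome assembly, fell in all 3 lines (-1.22, -0.60 and -0.58). PPAN, a factor of large-subunit assembly, had log2 changes of -1.05, -0.74 and -0.32, all called lower, the last one not with the replicate block (adjusted p = 0.0777). The replicate block left 6 of the 10 lower calls in NCI-H2228. Genes for the proteins that bind and assemble snoRNAs were called lower for 9, 10 and 6 of 16 and higher for 0 in each line (medians -0.16, -0.23 and -0.15). NOP56, a core protein of C/D particles, fell in all 3 lines (-0.93, -0.48 and -0.50). DKC1, the pseudouridine synthase of H/ACA particles, also fell in all 3 lines (-0.81, -0.36 and -0.39), as did the C/D core protein NOP58 (-0.48, -0.42 and -0.22). The assembly factor NUFIP1 fell by 0.72, 0.54 and 0.24 (with the replicate block, adjusted p = 0.0502 in NCI-H2228).

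**Figure D4:**
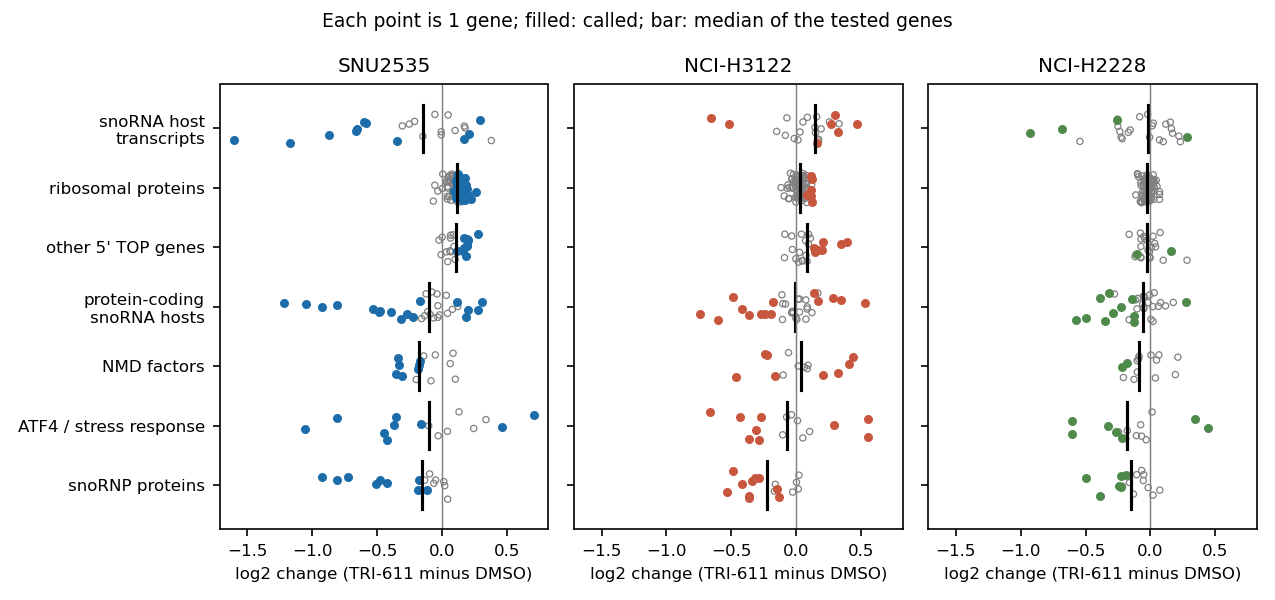
Log2 change after TRI-611 (x axis, difference of log2(TPM + 1)) of every tested gene of 7 groups (y axis) in the 3 lines, with 1 point per gene, filled where called, and a black bar at the group's median. The snoRNA host transcripts spread from -1.60 to 0.38 in SNU2535, while the 79 ribosomal protein genes stay between -0.07 and 0.26.

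NMD factors, whose products degrade many spliced host RNAs, were called lower for 7 of 14 and higher for 0 in SNU2535 (median -0.17). RBM8A (-0.35) and SMG5 (-0.34) changed most. In NCI-H3122 they were split, with 4 higher and 4 lower (median 0.04, but -0.03 after median-ratio scaling and -0.01 after quantile normalization). There RBM8A fell (-0.47) while SMG9 (0.44) and SMG1 (0.41) rose; SMG1 was called lower in SNU2535 (-0.31), though not with the replicate block (adjusted p = 0.0551). In NCI-H2228, 2 were called lower and 0 higher. EIF4A3 was lower in all 3 lines (-0.18, -0.16 and -0.22). Transcripts of the ATF4 and integrated stress response, which follows stalled translation initiation, were called higher for 2 and lower for 7 of 15 in SNU2535. The counts were 3 higher and 6 lower in NCI-H3122 and 2 higher and 5 lower in NCI-H2228. CHAC1 (-1.05) and TRIB3 (-0.81) fell in SNU2535 and PPP1R15A rose (0.71), and the same 3 genes led in NCI-H2228 (-0.61, -0.60 and 0.45). In NCI-H3122, CHAC1 and TRIB3 fell too (-0.43 and -0.29), UPP1 fell (-0.67, and also in SNU2535 and NCI-H2228, by 0.36 and 0.22) while ATF3 (0.56) and DDIT3 (0.55) rose. DDIT3 also rose in NCI-H2228 (0.35). With the replicate block the calls of CHAC1 in NCI-H2228 and DDIT3 in NCI-H3122 were lost (adjusted p = 0.0662 and 0.12). Whether these lists bear on the host transcripts was not tested.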

How the data were processed

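RNA of 18 libraries was sequenced after poly-A selection, with a library kit that carries molecular identifiers, per the labels' protocols. Tools listed in the submitters' processing notes are the trimmer fastp 0.23.1, the aligner STAR 2.5.2b, the counter featureCounts of Subread 1.5.2, and DESeq2, with the build GRCh38. The authors deposited 1 table of TPM values, used as deposited. The derivation of TPM, the annotation, the strand setting and the handling of identifiers were not given in the sources used here. The table holds 57500 genes, 485 of them without a name, and 0 columns could not be mapped to a sample.

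TPM was transformed to log2(TPM + 1), with a pseudocount of 1, and tested two-sided with limma 3.58.1 (trend and robust empirical Bayes) in R 4.3.3, with Benjamini-Hochberg adjustment over all genes tested. Genes needed at least 1 TPM in at least 3 libraries of the comparison. The steps were tested on simulated data. Figures were drawn with matplotlib 3.10.9. Positions, gene types and transcript starts are from GENCODE release 29 (all 27 IDs matched), and snoRNA genes and promoters from RefSeq.

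Members and gene lists were chosen with earlier results of these data known. Values per library are given for GAS5, ZFAS1, EPB41L4A-AS1, members called in at least 2 lines, the 3 largest called changes per line and the 3 largest called DMSO differences per pair of lines. All members called in an interaction are named, with up to 3 called genes per list and line and the genes that overlap a called member. A few genes that this rule would name are not reported here. The labels' batch pairs the libraries. Deviations from group means correlated across genes, which are not independent replicates, at r = -0.0228, 0.0437 and 0.00966 (SNU2535, batches 1 to 3), -0.0865, -0.0290 and 0.0152 (NCI-H3122) and 0.101, 0.00343 and 0.0830 (NCI-H2228). A batch contains 1 library of each group, which gives a difference but no test within it. Alternatives were other pseudocounts (0.1 and 5), filters (none and 5 TPM), scalings, plain empirical Bayes, the replicate block and each library left out.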

Additional observations from a re-analysis of the deposited data

Results flagged for a closer look

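Each result here is a difference in response to TRI-611 between 2 lines that passed an interaction test in limma at an adjusted p under 0.05. Some of these differences were lost in many alternatives, as given below. Between SNU2535 and NCI-H3122, the difference in log2 change (SNU2535 minus NCI-H3122) was -0.49 for SNHG3, -0.81 for SNHG4, -0.77 for SNHG26, -0.95 for SNHG15 and -0.84 for SNHG1. It was -0.57 for SNHG16, -1.06 for SNHG20 and -0.65 for SNHG17. Adjusted p ran from 8.34e-05 (SNHG16) to 0.0318 (SNHG1). The SNHG1 difference was lost in 8 of 21 alternatives, all of them with a library left out. The SNHG3 difference was lost in 6 of 21: without a filter, after median-ratio scaling, and without DMSO library 3 of SNU2535 or DMSO library 2, TRI-611 library 2 or TRI-611 library 3 of NCI-H3122 (adjusted p from 0.00292 to 0.0565 over all 21). In NCI-H3122 the TRI-611 libraries held 39.5, 58.1 and 58.2 TPM of SNHG1.

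Between SNU2535 and NCI-H2228, the difference (SNU2535 minus NCI-H2228) was -0.67 for SNHG15, -0.33 for SNHG16, -0.70 for SNHG20 and -0.49 for SNHG17. The SNHG20 difference was lost in 7 of 20 alternatives and the SNHG17 difference in 13 of 21. Between NCI-H3122 and NCI-H2228, the difference (NCI-H3122 minus NCI-H2228) was 0.30 for GAS5, 0.29 for SNHG8 and 0.24 for SNHG16. The GAS5 and SNHG8 differences were each lost in 14 of 21 alternatives, and that of SNHG16 in 0.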

How the results depend on the processing

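Over 40 results named by gene and 683 alternatives, 574 kept direction and side of the threshold, 100 lost a call, 4 gained one and 5 reversed. The reversals all concern ZFAS1 in NCI-H2228, near 0 at -0.01, which became 0.0365 after quantile normalization and 0.022 without mitochondrially encoded genes, and ran from -0.0645 to 0.0311 with a library left out (above 0 without DMSO replicate 1, DMSO replicate 2 or TRI-611 replicate 2). The causes of the changes below were not tested. Members higher in SNU2535 (3) numbered 1 without a filter, with the replicate block and with plain empirical Bayes, 5 after quantile normalization, and 1 to 4 with a library left out. Members higher in NCI-H3122 (5) numbered 8 without mitochondrially encoded genes and 3 to 8 with a library left out. Members higher in NCI-H2228 (1) numbered 0 without a filter and with the replicate block, 3 with a filter of 5 TPM, 2 after quantile normalization, 2 without mitochondrially encoded genes, and 0 to 2 with a library left out. With a library left out, members lower ran from 5 to 9 in SNU2535 (8) and from 3 to 5 in NCI-H2228 (3). Members lower with DMSO in SNU2535 than in NCI-H2228 (11) numbered 6 after median-ratio scaling and after quantile normalization, and 7 to 10 with a library left out. Response differences between SNU2535 and NCI-H3122 (8) numbered 5 with a filter of 5 TPM, which tests fewer members, and those between NCI-H3122 and NCI-H2228 (3) numbered 1 without a filter and after median-ratio scaling. With a library left out they ran from 6 to 9, from 1 to 4 and, between SNU2535 and NCI-H2228 (4), from 2 to 5. Apart from the calls given beside the results, the replicate block changed no call of a named member. TPM gives no read depth, so counting error at low TPM is unknown.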

Other observations

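Within groups, batch 1 was often the lowest of the 3 libraries for some host transcripts, which was seen in the values and not tested. The share over all genes was not computed. SNHG3 was lowest in batch 1 in 6 of 6 groups, and SNHG1, SNHG4, SNHG12 and SNHG26 in 5 of 6, the highest counts among the tested members. GAS5 was lowest in batch 1 in 2 of 6 groups, and SNHG5 in 1 of 6. Other batches were lowest for other members: SNHG11 in batch 2 in 4 of 6 groups and SNHG5 in batch 3 in 4 of 6. With the replicate block, the adjusted p of SNHG1 in SNU2535 was 0.00111, against 0.0145 without it.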
